A study of Homo sapiens with 36 samples.

Results

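FN1 encodes fibronectin, the secreted glycoprotein that cells assemble into fibrils outside the plasma membrane. The 24 cultures described here were chosen by, and divided on, the FN1 transcript level of their libraries. FN1-high was set as more than 25000 CPM (counts of a gene relative to the total of its library, scaled between libraries by the trimmed mean of M-values, TMM), and 12 of the 36 libraries of the study met it. A further 12 libraries below that level, from the same 3 conditions and rich in fibroblast transcripts, form the FN1-low class. Since FN1 chose the classes, all differences between FN1-high and FN1-low are given as descriptions, with no test.

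All cultures were HepG2-IGF1R-KO, a line made from HepG2 hepatoma cells in which the type 1 insulin-like growth factor receptor gene was targeted, and all were grown for 72 h. Insulin-resistant medium held 1 nM insulin, 0.5 mM each of palmitic, linoleic and oleic acid, and 20 mM glucose, and the stimulated cultures received 3 nM human insulin for 18 h. Whether the 1 nM insulin was taken away before stimulation is not stated in the labels. FN1-high comprised 6 libraries from insulin-resistant medium with insulin (replicates 4 to 9), 3 from insulin-resistant medium without stimulation (7 to 9) and 3 from normal medium without stimulation (7 to 9). FN1-low comprised insulin-resistant medium with insulin (replicates 1 to 3), insulin-resistant medium without stimulation (4 to 6) and normal medium without stimulation (1 to 6). RNA was read as poly-A libraries from a strand-specific kit. Total estimated counts were 60.9 to 81.1 M (median 64.2 M) in FN1-high libraries and 59.9 to 116.8 M (median 74.8 M) in FN1-low libraries. IGF1R transcript was still present, at 104.5 to 146.5 CPM in FN1-high libraries and 76.12 to 111.9 CPM in FN1-low libraries; where in the gene it was targeted is not given, so this level does not check the knockout.

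Fibronectin binds integrins on the cell surface and serves as a scaffold on which collagens, fibrillins and latent forms of transforming growth factor beta (TGF-beta) are laid down. Hepatocytes secrete the soluble plasma form, whereas fibroblasts and other stromal cells make and assemble the insoluble form. Fibroblasts under TGF-beta or mechanical load turn into myofibroblasts, which carry smooth-muscle actin fibres and secrete more matrix.

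FN1 itself stood at 33289 to 42166 CPM (median 36453) in FN1-high libraries and at 10681 to 16713 CPM (median 12626) in FN1-low libraries. The library nearest above the threshold was replicate 6 of insulin-resistant medium with insulin, at 33289 CPM, and the one nearest below was replicate 1 of untreated normal medium, at 16713 CPM. No library lay between these. The remaining 12 libraries of the study, which belong to neither class, fell into 6 other stromal libraries with 13117 to 16498 CPM of FN1 and 6 libraries low in stroma with 7016 to 11382 CPM.

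**Figure D1:**
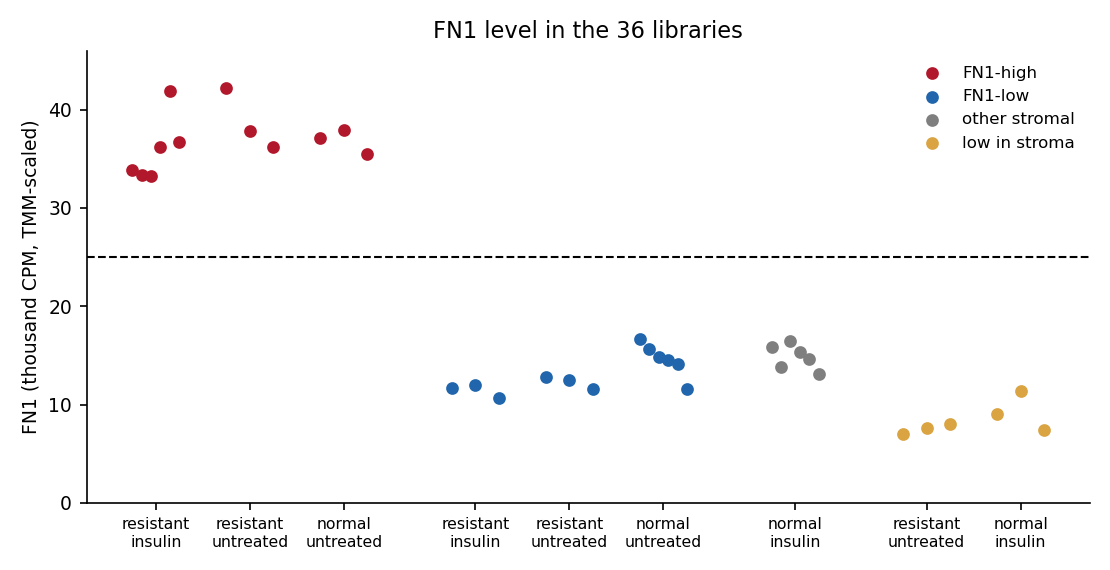
FN1 level (TMM-scaled CPM, in units of 1000) of each of the 36 libraries, by class and condition, with 1 point per library and the dashed line at 25000 CPM. The 12 FN1-high libraries sit at 33289 CPM or above and every other library at 16713 CPM or below.

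The labels name no cell other than HepG2, and the markers of the line were present. ALB, which encodes albumin, had 3538 to 7095 CPM (median 4188) in FN1-high and 3508 to 10388 CPM (median 6397) in FN1-low libraries. Fibroblast markers were also abundant: the 21 listed genes, 20 of them at 1 CPM or more in both classes, summed to 50493 to 72287 CPM in FN1-high and 21210 to 41458 CPM in FN1-low libraries. Most of that sum was 4 collagen genes, at 45641 to 66275 CPM in FN1-high and 17202 to 36473 CPM in FN1-low libraries; the other 17 genes summed to 4852 to 6065 CPM in FN1-high and 3727 to 6421 CPM in FN1-low libraries, which overlapped. Gene by gene, 2 of the 20 fibroblast markers that passed the filter on low counts (COL1A1 and COL6A3) were higher by the 2-fold rule given below and none was lower, with a median difference of 0.33 log2 and 13 positive. TWIST1, TWIST2 and S100A4 had differences of -0.88, -0.99 and -0.77 log2. In the 6 libraries low in stroma the sum of all 21 was 108 to 154 CPM. Pericyte and smooth-muscle markers (10 genes) summed to 368 to 485 CPM in FN1-high and 174 to 322 CPM in FN1-low libraries. Endothelial markers summed to 8.87 to 17.4 CPM in FN1-high and 9.01 to 19.7 CPM in FN1-low. Cholangiocyte markers summed to 1063 to 1473 CPM in FN1-high and 895 to 1616 CPM in FN1-low. Leukocyte markers summed to 737 to 1230 CPM in FN1-high and 795 to 1545 CPM in FN1-low. In the 6 libraries low in stroma the leukocyte sum was 669 to 2044 CPM. Most of it in the 2 classes was LYZ, with means of 755 to 1336 CPM over sets of 3 replicates. Of 10 leukocyte markers, 3 averaged 1 CPM or more in each class. Among the markers of these lists found in the table, 1 leukocyte marker was at 0 in all 24 libraries. In such bulk RNA, fewer cells of a type and less RNA per cell cannot be told apart, and the part that the amount of fibroblast RNA plays in the values below was not tested.

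Promoter windows are printed here for 5 genes that differed most in level or stand for a gene group below. These windows are shown because they carry short motifs of factors known to act on matrix and contractile genes. Each run gives the 250 bases before a transcription start on the strand of the gene (RefSeq, GRCh38.p14), with motif matches in capitals. ACTA2 had 2 listed starts, and NOX4 and EGR2 had 3 each. The windows of their other starts are not printed. Which start was used in these cultures was not tested, so a printed window need not be the active promoter. For FN1 the capitals mark a cyclic AMP response element (CRE, TGACGTCA), for CCN2 and ACTA2 the SMAD-binding letters CAGAC (or GTCTG on the other strand) and the TEAD-binding letters GGAATG, and for NOX4 and EGR2 a CArG box, the element bound by serum response factor. A CArG box had to match CCWWWWWWGG exactly, with W for A or T. Near matches, such as ccctatatgg and ccttgtttgg in the ACTA2 window, were neither marked nor counted.
FN1 (chr2:215436069-215436318, minus strand): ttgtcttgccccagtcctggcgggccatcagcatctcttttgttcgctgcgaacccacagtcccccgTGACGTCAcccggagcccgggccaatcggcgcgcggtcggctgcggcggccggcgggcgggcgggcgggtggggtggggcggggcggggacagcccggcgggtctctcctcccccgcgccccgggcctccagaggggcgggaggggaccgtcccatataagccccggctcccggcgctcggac
CCN2 (chr6:131951373-131951622, minus strand): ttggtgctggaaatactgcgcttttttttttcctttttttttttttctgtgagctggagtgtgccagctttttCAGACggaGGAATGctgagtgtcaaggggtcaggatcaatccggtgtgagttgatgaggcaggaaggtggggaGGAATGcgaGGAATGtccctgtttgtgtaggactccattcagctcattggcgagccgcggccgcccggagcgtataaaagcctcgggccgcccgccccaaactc
ACTA2 (chr10:88952774-88953023, minus strand): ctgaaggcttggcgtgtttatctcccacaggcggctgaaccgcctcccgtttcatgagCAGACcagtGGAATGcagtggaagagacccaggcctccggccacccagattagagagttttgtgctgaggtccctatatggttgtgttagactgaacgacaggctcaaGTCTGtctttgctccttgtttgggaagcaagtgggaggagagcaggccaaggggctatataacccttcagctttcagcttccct
NOX4 (chr11:89492220-89492469, minus strand): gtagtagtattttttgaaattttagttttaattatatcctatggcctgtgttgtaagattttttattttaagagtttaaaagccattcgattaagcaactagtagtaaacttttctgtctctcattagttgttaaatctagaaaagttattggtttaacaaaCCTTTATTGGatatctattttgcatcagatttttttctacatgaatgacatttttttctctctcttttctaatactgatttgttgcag
EGR2 (chr10:62816367-62816616, minus strand): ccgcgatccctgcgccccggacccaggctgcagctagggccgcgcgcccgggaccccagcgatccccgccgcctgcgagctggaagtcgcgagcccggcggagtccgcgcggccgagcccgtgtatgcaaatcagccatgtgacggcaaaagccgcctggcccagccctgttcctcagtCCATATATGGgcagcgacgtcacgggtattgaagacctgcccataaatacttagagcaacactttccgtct

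Among promoters of the genes higher in FN1-high described below, 17 of 399 windows, belonging to 16 genes, held a CArG box (4.26%), against none of 117 windows of the genes lower in FN1-high and 1.1% of 18176 windows of all tested genes. Besides NOX4 and EGR2, these genes included ACTG2 and ACTC1, which encode smooth-muscle and cardiac actins, and ACTN1, which encodes an actin cross-linker. The SMAD letters occurred in 39.3% and 36.8% of windows of the higher and lower genes and in 37% of those of all tested genes. TEAD letters were found in 15.5%, 11.1% and 10.2% of the windows in that order. In the same order, the AP-1 letters (TGACTCA, or TGAGTCA on the other strand) were in 4.01%, 5.98% and 3.3%. The CRE was in 0.752%, 0.855% and 2.34%. Over all 35116 windows of the table the shares were 1.16% (CArG), 38% (SMAD), 11.9% (TEAD), 4.2% (AP-1) and 1.65% (CRE), so the AP-1 share of the higher genes lay below the table's and above that of tested genes. Both strands were searched, and the windows of 1 gene can overlap. Of 363 higher and 142 lower genes with a symbol, 271 and 84 had a window. A match is a run of letters and does not show binding.

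Of 18637 genes that passed the filter on low counts, 375 (2.01%) were at least 2-fold higher in FN1-high in each of the 3 conditions, and 149 (0.799%) were at least 2-fold lower in each. For 330 of the higher genes (1.77% of all tested) the highest FN1-low library stayed below the lowest FN1-high library in every condition. At any fold this held for 1415 (7.59%) of all tested genes, and the reverse for 902 (4.84%). Some genes below are said not to overlap over all libraries of the 2 classes. The share of all tested genes for which that held is not given. A gene is called higher or lower below only if it met the 2-fold rule in all 3 conditions, and the log2 difference given for it is the FN1-high minus FN1-low coefficient with condition as a block. Over all tested genes the median of this coefficient was -0.07. Higher genes made up 71.6% of the calls; scaling the libraries to hepatocyte genes gave 82.7% and scaling to fibroblast markers other than collagens 54%. Of the 375 higher genes, 279 averaged under 1 CPM in the 6 libraries low in stroma, as did 139 of the 149 lower genes and 5801 (31.1%) of all tested genes. Many calls were of low genes: 93 of the higher averaged under 1 CPM in FN1-high and 73 of the lower averaged under 1 CPM in FN1-low.

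FN1-high libraries held more transcript of the fibrillar and matricellular proteins that associate with fibronectin. Of 27 such genes, 13 including FN1 were higher, none was lower, and the median difference was 1.39 log2. TGFBI, which encodes a secreted adaptor between collagens and integrins, had 3771 to 5119 CPM (median 4003) in FN1-high and 385 to 798 CPM (median 586) in FN1-low libraries, a difference of 2.87 log2. TNC encodes tenascin C, a glycoprotein of wounds and developing tendon, and had 685 to 1026 CPM (median 771) in FN1-high against 84.2 to 503 CPM (median 166) in FN1-low libraries. The FN1-high and FN1-low sets of libraries did not overlap for either gene.

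Elastic-fibre genes were part of this group. ELN (elastin) had 1252 to 1965 CPM in FN1-high and 86.1 to 999 CPM in FN1-low libraries (2.63 log2), LTBP2, which encodes a latent TGF-beta binding protein of microfibrils, 947 to 1442 CPM in FN1-high and 161 to 407 CPM in FN1-low (2.30 log2), and MFAP4, a microfibril-associated glycoprotein, 255 to 360 CPM in FN1-high and 36.6 to 75.5 CPM in FN1-low (2.40 log2). FBN1, the microfibril protein fibrillin-1, differed less, with 2262 to 3135 CPM in FN1-high and 702 to 1449 CPM in FN1-low libraries (1.44 log2). SPARC, THBS2 and POSTN, which encode matricellular proteins made during tissue repair, were higher by 1.39, 1.65 and 1.52 log2. COMP, a pentameric matrix protein of cartilage and tendon, had 118 to 217 CPM (median 150) in FN1-high and 3.62 to 10.3 CPM (median 5.9) in FN1-low libraries, a difference of 4.75 log2. Every FN1-high library exceeded every FN1-low library for each of these genes.

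IGFBP3, the main carrier of insulin-like growth factors in plasma, had 5122 to 7359 CPM (median 5744) in FN1-high and 408 to 1952 CPM (median 530) in FN1-low libraries (3.11 log2). Its relative IGFBP5 went the other way, at 567 to 807 CPM in FN1-high and 802 to 2282 CPM in FN1-low libraries, and met the 2-fold rule in neither direction. THBS1, which encodes thrombospondin 1 and can activate latent TGF-beta, differed by 0.59 log2 and was in neither set.

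The list of 16 fibronectin receptor genes also holds the collagen-binding ITGA11. In it ITGA11 and ITGB3 were higher and ITGA8 was lower, with a median difference of 0.38 log2 over the list. ITGA11, the alpha chain of a collagen-binding integrin of fibroblasts, had 211 to 282 CPM in FN1-high and 48.4 to 103 CPM in FN1-low libraries. ITGB3, a beta chain of vitronectin- and fibronectin-binding integrins, had 7.97 to 11.4 CPM in FN1-high and 3.33 to 6.63 CPM in FN1-low libraries. ITGA8, the alpha chain of an RGD-binding integrin, had 2.5 to 4.38 CPM in FN1-high and 4.57 to 12.9 CPM in FN1-low libraries.

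Collagen genes followed the same direction, 8 of 23 being higher and none lower, with a median difference of 1.02 log2. COL1A1, a chain of the main fibrillar collagen, had 23608 to 35997 CPM (median 28194) in FN1-high and 7735 to 18120 CPM (median 12525) in FN1-low libraries (1.19 log2). Its partner chain COL1A2 differed by 0.67 log2 and met the 2-fold rule in no direction. COL5A1, which nucleates collagen fibrils, differed by 1.77 log2, COL11A1 by 1.52 log2, and the basement-membrane chain COL4A1 by 1.80 log2. COL8A2, a short-chain network collagen, differed most within the list, with 66.5 to 90.6 CPM (median 73.6) in FN1-high and 5.57 to 11.4 CPM (median 8.25) in FN1-low libraries (3.21 log2). Of 19 collagen-processing genes, 5 were higher and none lower. They included LOX, which cross-links collagen and elastin (1306 to 1533 CPM in FN1-high, 304 to 860 CPM in FN1-low libraries), PLOD2, a lysyl hydroxylase (291 to 352 CPM in FN1-high, 67.3 to 267 CPM in FN1-low libraries), the prolyl hydroxylase subunit P4HA2, and the procollagen proteinases ADAMTS2 and ADAMTS14. SERPINH1, the collagen chaperone of the endoplasmic reticulum, differed by 0.90 log2 and was not called.

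Matrix proteases and their inhibitors divided. Over 23 genes, ADAM12, MMP13, TIMP3 and SERPINE2 were higher, none was lower, and the median difference was -0.52 log2. MMP13, collagenase 3, was close to 0 throughout, with 0.0522 to 0.379 CPM in FN1-high and 0 to 0.0929 CPM in FN1-low libraries, and the classes were apart in 1 of the 3 conditions. ADAM12, a membrane metalloprotease of activated stroma, had 152 to 197 CPM in FN1-high and 8.47 to 89 CPM in FN1-low libraries (3.21 log2), and the inhibitors TIMP3 and SERPINE2 were higher by 1.29 and 1.30 log2. Interstitial collagenase, encoded by MMP1, had 15.7 to 26.4 CPM (median 20.4) in FN1-high and 30.6 to 259 CPM (median 110) in FN1-low libraries. PLAU, which encodes urokinase, had 4.86 to 21.1 CPM in FN1-high and 28.1 to 54.7 CPM in FN1-low libraries. Both sets were apart in all 3 conditions, yet in 1 condition each difference was under 2-fold, so neither gene counts as lower. Of 18 proteoglycan genes, ASPN, VCAN and HAPLN1 were higher and ACAN was lower. ASPN encodes asporin, a small leucine-rich proteoglycan, and differed by 2.47 log2.

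Of 20 contractile genes, 10 were higher and none lower, with a median difference of 1.15 log2. ACTA2, which encodes the alpha smooth-muscle actin used to define myofibroblasts, had 593 to 815 CPM (median 712) in FN1-high and 58.8 to 138 CPM (median 78.9) in FN1-low libraries (3.05 log2). TPM1, a tropomyosin that stabilises actin filaments, had 2063 to 2626 CPM (median 2209) in FN1-high and 279 to 1212 CPM (median 448) in FN1-low libraries. TAGLN (transgelin) differed by 1.59 log2, CNN1 (calponin 1) by 1.93 log2, CALD1 (caldesmon) by 1.73 log2 and LMOD1 (leiomodin, an actin nucleator) by 1.69 log2. The lowest FN1-high library was above the highest FN1-low library for each of these 6 genes. Of the 10 pericyte and smooth-muscle markers, ACTG2, MYH11 and LMOD1 were higher and KCNJ8, a potassium channel of pericytes, was lower. VIM, the intermediate filament of mesenchymal cells in general, differed by -0.13 log2, with 2188 to 2811 CPM in FN1-high and 1908 to 3707 CPM in FN1-low libraries.

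**Figure D2:**
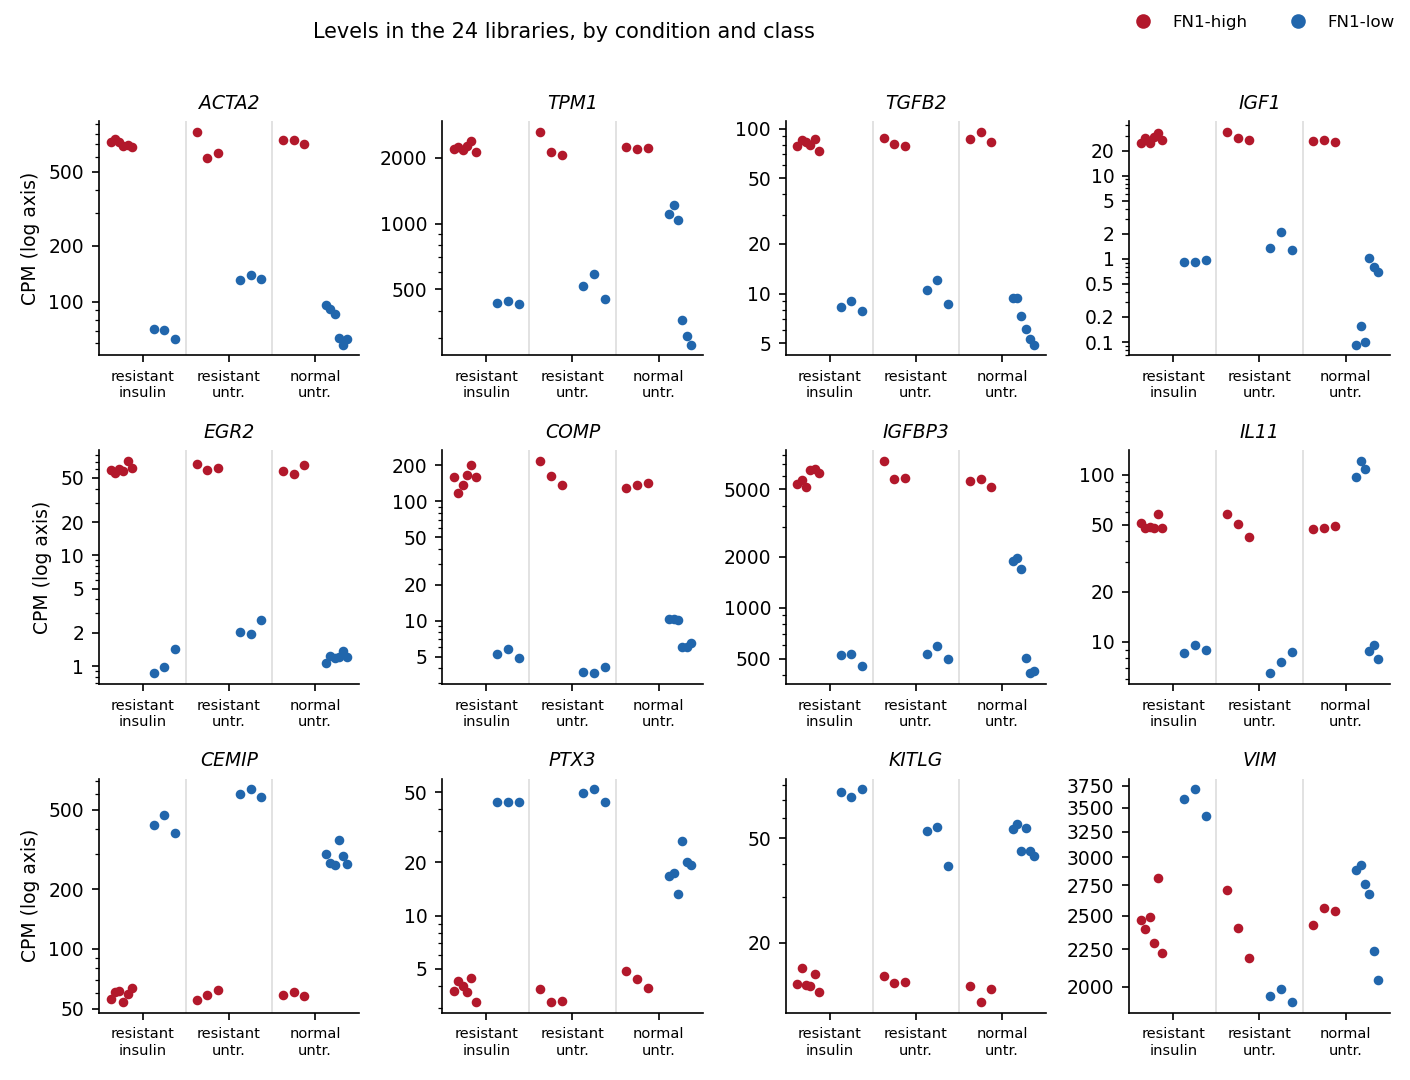
Level (CPM, log axis) of 12 genes in each of the 24 libraries, by condition, with FN1-high libraries to the left of FN1-low libraries. ACTA2, TPM1, TGFB2, IGF1, EGR2, COMP and IGFBP3 are higher in FN1-high, CEMIP, PTX3 and KITLG lower, and IL11 and VIM overlap between the classes.

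Of 22 TGF-beta pathway genes, TGFB2, INHBA, SKIL and PMEPA1 were higher, none was lower, and the median difference was 0.27 log2. The ligand TGFB2 had 73.6 to 95.3 CPM (median 82.7) in FN1-high and 4.91 to 12 CPM (median 8.49) in FN1-low libraries (3.33 log2). INHBA, which encodes the activin A subunit, had 83.3 to 110 CPM in FN1-high and 10.1 to 85.6 CPM in FN1-low libraries. PMEPA1 and SKIL are feedback inhibitors that the pathway switches on. PMEPA1 had 47.5 to 73 CPM (median 55.9) in FN1-high and 3.14 to 20.3 CPM (median 4.76) in FN1-low libraries (3.10 log2), and SKIL differed by 1.52 log2. TGFB1, the best-known ligand, and its receptor gene TGFBR1 differed by under 2-fold, TGFB1 having 126 to 166 CPM in FN1-high and 83 to 131 CPM in FN1-low libraries and TGFBR1 having 94.7 to 106 CPM in FN1-high and 62.4 to 85.4 CPM in FN1-low libraries.

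LRRC32, which encodes the cell-surface docking protein of latent TGF-beta, had 17.1 to 23 CPM (median 18.6) in FN1-high and 0.33 to 1.3 CPM (median 0.607) in FN1-low libraries (4.84 log2). NOX4, an NADPH oxidase that fibroblasts induce under TGF-beta, had 36.1 to 46.5 CPM (median 41.6) in FN1-high and 2.19 to 8.98 CPM (median 3.4) in FN1-low libraries. CCN2, known as connective tissue growth factor, is a target of both TGF-beta and the YAP coactivator. It had 2389 to 3006 CPM (median 2556) in FN1-high and 388 to 1576 CPM (median 694) in FN1-low libraries (1.92 log2). Of 19 YAP target genes, CCN2, IGFBP3 and GADD45B were higher and none was lower, with a median difference of 0.29 log2.

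EGR2, an early-response zinc finger factor, showed the largest difference among the genes named by the rule, with 53.7 to 71.5 CPM (median 59.7) in FN1-high and 0.859 to 2.62 CPM (median 1.23) in FN1-low libraries (5.42 log2). TSPAN2, a tetraspanin, had 65.9 to 89.3 CPM (median 75.6) in FN1-high and 1.36 to 5.94 CPM (median 2.37) in FN1-low libraries (4.80 log2). GDF6, a bone morphogenetic protein of joints, had 97.4 to 126 CPM (median 105) in FN1-high and 4.59 to 10.4 CPM (median 7.21) in FN1-low libraries (3.85 log2). DACT1, a Dishevelled-binding regulator of Wnt signalling, differed by 3.04 log2. In each of these 4 genes the FN1-high libraries differed from each other by less than 1.5-fold.

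Growth factors went both ways, IGF1, HBEGF and FGF2 being higher and HGF, KITLG and PDGFD lower among 22 tested, with a median of 0.07 log2 that turned negative when libraries were scaled to fibroblast markers. IGF1, a ligand of the receptor targeted in this line, had 24.5 to 33.3 CPM (median 26.7) in FN1-high and 0.0929 to 2.13 CPM (median 0.922) in FN1-low libraries (4.95 log2). HBEGF, a ligand of the epidermal growth factor receptor, had 22.7 to 27 CPM in FN1-high and 1.66 to 14.9 CPM in FN1-low libraries, and FGF2 differed by 1.24 log2. KITLG, the stem cell factor that binds KIT, was lower in FN1-high, at 11.9 to 16 CPM (median 13.9), against 39.1 to 76.9 CPM (median 54.5) in FN1-low libraries (-2.06 log2). HOX genes, which retain positional identity in fibroblasts, were mostly in neither set. HOXC13, HOXD9 and HOXD10 were higher among 29 tested, and the list median of 0.02 log2 changed sign between scalings.

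The 149 lower genes included secreted and membrane proteins. CEMIP, which degrades hyaluronan, had 54 to 63.5 CPM (median 58.9) in FN1-high and 264 to 634 CPM (median 367) in FN1-low libraries (-2.78 log2). PTX3, the long pentraxin of innate immunity, had 3.24 to 4.84 CPM (median 3.87) in FN1-high and 13.3 to 51.7 CPM (median 35.1) in FN1-low libraries (-3.07 log2). ENPP2, the autotaxin that makes lysophosphatidic acid, had 15.1 to 19 CPM in FN1-high and 42.6 to 89 CPM in FN1-low libraries (-1.96 log2). FN1-high and FN1-low libraries did not overlap for these 3 genes. The Wnt antagonist SFRP1 differed by -1.58 log2, the Wnt exporter WLS by -1.82 log2, and TNFRSF11B, the decoy receptor osteoprotegerin, by -2.21 log2. ACKR4, a scavenging chemokine receptor, had 2.18 to 3.83 CPM in FN1-high and 8.4 to 46.7 CPM in FN1-low libraries. APCDD1, a membrane inhibitor of Wnt signalling, met the rule but overlapped, with 3.04 to 4.8 CPM in FN1-high and 1.41 to 70.9 CPM in FN1-low libraries.

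Cell-cycle genes had lower levels in FN1-high, but none of 28 met the 2-fold rule in all 3 conditions; for 23 of them FN1-high libraries lay below FN1-low libraries in all 3 conditions at any fold, as they did for 902 (4.84%) of all tested genes (they lay above for 1415, or 7.59%), and the list median was -0.75 log2. By condition that median was -1.015 log2 in untreated normal medium and -0.34 log2 in untreated insulin-resistant medium. In insulin-resistant medium with insulin it was -0.75 log2. KIF20A, a kinesin of cytokinesis, had 15.1 to 22.3 CPM (median 17.7) in FN1-high and 20 to 97.8 CPM (median 58.6) in FN1-low libraries. CDK1, the mitotic kinase, and CCNB1, its cyclin partner, differed by -1.03 and -0.99 log2. None of 26 hepatocyte identity genes was higher or lower; their median of -0.17 log2 became 0.01 log2 under scaling to these same genes.

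**Figure D3:**
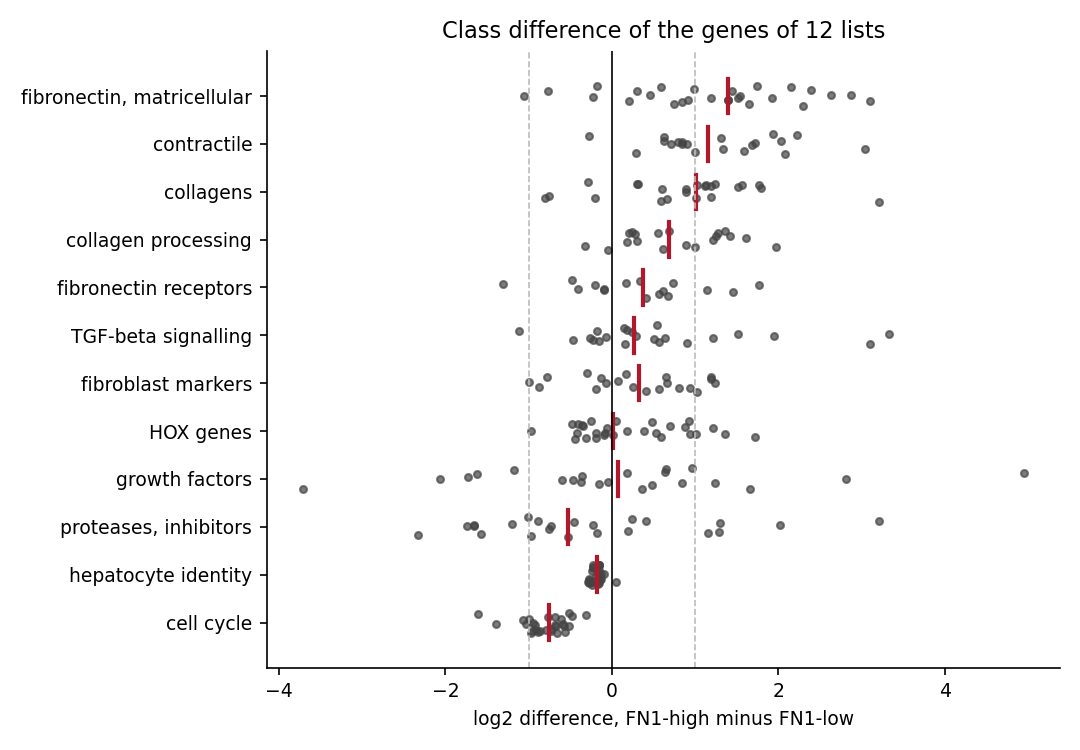
Log2 difference, FN1-high minus FN1-low, of each gene (point) of 12 gene lists, with the list median as a red bar and dashed lines at 2-fold. Fibronectin and matricellular, contractile and collagen genes have medians of 1.39, 1.15 and 1.02 log2, hepatocyte identity genes cluster near 0 and cell-cycle genes lie below it with a median of -0.75 log2; the hepatocyte median is -0.17 and changes sign under scaling to those genes.

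The labels carry 3 dates. Of the FN1-high libraries 5 were dated 22 April, 7 dated 11 April and none 24 May; of the FN1-low libraries these dates held 4, 2 and 6. All 3 FN1-low libraries of untreated insulin-resistant medium were dated 24 May, so in that condition the class and the date cannot be told apart. Without the 24 May libraries, which leaves 2 conditions, 364 genes were higher and 345 lower. Within the 22 April libraries alone these counts were 372 and 365, with a gene having to pass in 2 conditions rather than 3.

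Libraries with neighbouring replicate numbers (1 to 3, 4 to 6, 7 to 9) resembled each other and behaved as runs of 3. Between the FN1-high runs of insulin-resistant medium with insulin, replicates 4 to 6 and 7 to 9, 400 genes (2.15%) differed by 2-fold or more. Between the FN1-low runs of untreated normal medium, replicates 1 to 3 and 4 to 6, 1563 genes (8.39%) did. Across the classes within a condition the count was 1542 to 1814 (8.27% to 9.73%). Among the 375 higher genes the median range over the 4 FN1-high runs was 0.21 log2, and 20 spanned more than 2-fold. Over the 4 FN1-low runs the median range was 1.10 log2 and 211 spanned more than 2-fold. These genes were picked by the class difference, and the range over all tested genes was not taken. Only FN1-low included runs dated 24 May (replicates 4 to 6 of both untreated media).

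**Figure D4:**
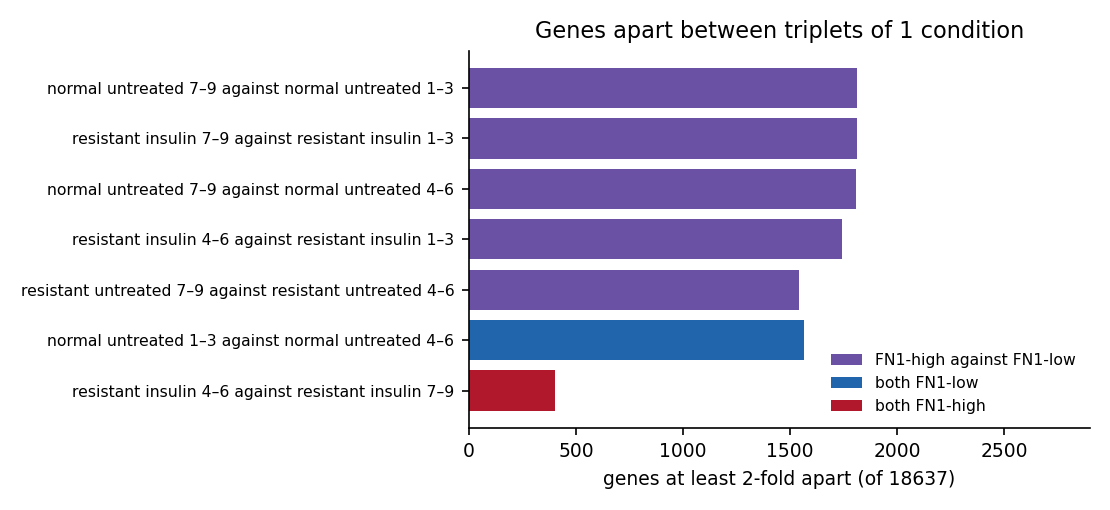
Number of genes, of 18637 tested, that differed at least 2-fold between the means of 2 runs of 3 libraries from the same condition. The pair of FN1-high runs differed at 400 genes and the pair of FN1-low runs at 1563, beside 1542 to 1814 for pairs across the classes.

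Among the FN1-low runs, replicates 1 to 3 of untreated normal medium were nearest to FN1-high over the 375 higher genes. The median difference of that run from the FN1-high mean was -1.41 log2, and that of the other 3 FN1-low runs was -2.18 to -1.84 log2. For the 149 lower genes the median was 1.56 log2 in that run, 1.91 and 1.94 log2 in replicates 4 to 6 of untreated insulin-resistant and normal medium, and 2.43 log2 in insulin-resistant medium with insulin, the run furthest from FN1-high there. IL11, a cytokine that fibroblasts secrete under TGF-beta, averaged 109 CPM in replicates 1 to 3 of untreated normal medium and 7.58 to 9.05 CPM in the other FN1-low runs, with 42.4 to 58.3 CPM in the FN1-high libraries. COL4A1 averaged 1436 CPM there and 331 to 504 CPM in the others. IGF1 and APCDD1 did the reverse, averaging 0.117 and 1.61 CPM in that run and 0.835 to 1.58 and 42.2 to 66.3 CPM in the others. For 126 of the 375 higher genes, replicates 1 to 3 were at least 2-fold above replicates 4 to 6 of the same medium. Over all 18637 tested genes this held for 774. Replicates 1 to 3 were dated April and 4 to 6 were dated 24 May, so run and date cannot be told apart here.

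The 6 other stromal libraries, from normal medium with insulin (replicates 1 to 3 and 7 to 9), had no part in the calls above. On the log2 scale 349 of the 375 higher genes and 140 of the 149 lower genes averaged closer to the FN1-low than to the FN1-high mean in them. The same count over all tested genes was not made. By FN1 level these libraries lay under the cut, as FN1-low did, and their fibroblast markers summed to 21780 to 49490 CPM. EGR2 had 1.32 to 4.42 CPM in these libraries.

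How the medium and insulin acted within each class was tested, since the rule used neither effect. edgeR's quasi-likelihood test was fitted over the 24 libraries with date as a term, and adjusted p-values are Benjamini-Hochberg over 18637 genes. The medium effect is untreated insulin-resistant minus untreated normal medium. It was measured by replicates 7 to 9 of both media in FN1-high. In FN1-low the date term leaves replicates 4 to 6 of both media, all dated 24 May, to carry it. Each arm is therefore 1 run of 3 libraries, the medium and the run cannot be told apart, and the labels do not say that the libraries came from separate cultures started independently. The p-values measure the spread between libraries. Fits with each run summed to 1 sample, here and below, had no date term and left most groups with 1 sample. For the medium effect in FN1-low they set insulin-resistant medium against both normal-medium runs, replicates 1 to 3 and 4 to 6. With each run summed to 1 sample, no gene passed in FN1-high (1383 had an unadjusted p under 0.05) and 277 passed in FN1-low.

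In FN1-high, 1812 genes (9.72%) rose and 1503 (8.06%) fell in insulin-resistant medium; in FN1-low, 3709 (19.9%) rose and 3284 (17.6%) fell. Scaling the libraries to 26 hepatocyte genes, 13 of which themselves fell in each class, gave 13583 rises and 299 falls in FN1-high and 11942 and 598 in FN1-low. The hepatic and inflammatory genes named next passed in the same direction in both classes. G6PC1, the glucose-6-phosphatase that releases glucose from the liver, had 0.0696, 0.187 and 0.208 CPM in insulin-resistant medium, against 3.64, 3.39 and 3.96 CPM in normal medium, in FN1-high cultures. In FN1-low cultures it had 0.205, 0.144 and 0.0919 CPM in insulin-resistant medium and 3.66 to 5.16 CPM in normal medium. It fell by 4.59 ± 0.26 log2 (SE) in FN1-high and by 4.89 ± 0.25 log2 in FN1-low (edgeR adjusted p = 5.76e-12 and 2e-13). PCK1, which commits carbon to gluconeogenesis, fell by 1.61 ± 0.17 and 1.57 ± 0.16 log2 in FN1-high and FN1-low.

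CXCL8, the neutrophil chemokine interleukin 8, had 92, 107 and 111 CPM in insulin-resistant medium and 3.36, 7.27 and 5.23 CPM in normal medium in FN1-high cultures. FN1-low cultures held 102, 130 and 155 CPM in insulin-resistant medium and 4.62 to 10.2 CPM in normal medium. It rose by 4.29 ± 0.26 log2 in FN1-high and 4.14 ± 0.25 log2 in FN1-low (edgeR adjusted p = 1.56e-09 and 5.02e-10). The adhesion molecule ICAM1 rose by 2.46 ± 0.14 and 2.67 ± 0.14 log2, and UBD, a ubiquitin-like protein induced by inflammatory cytokines, by 3.18 ± 0.14 and 3.01 ± 0.14 log2. FST, the activin-binding protein follistatin, fell by 2.46 ± 0.14 and 2.24 ± 0.13 log2. For none of these 6 genes did the difference between the classes pass; the adjusted p ranged from 0.676 to 0.979. Of 16 inflammation genes 12 rose and none fell in FN1-high, and 14 rose and IL1B fell in FN1-low. The difference between the classes was negative for 2 of these 16 and positive for none. It was likewise negative for 2 and positive for none of 17 gluconeogenesis and FOXO1 genes. Of 26 hepatocyte identity genes 13 fell and none rose in each class.

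The difference between the medium effects, FN1-high minus FN1-low, passed for 1315 genes (7.06%), 611 of them positive (3.28%) and 704 negative (3.78%). The FN1-low run of insulin-resistant medium with insulin was set beside replicates 4 to 6 of both untreated media. For 59.9% of the 1315 genes it lay nearer to normal than to insulin-resistant medium. This held for 46.3% of all tested genes and 32% of those called in both classes without a called difference. Insulin, run and date cannot be told apart there. The negative count was 459 without replicate 9 of untreated insulin-resistant medium. With runs summed to 1 sample no difference passed by edgeR (531 genes had an unadjusted p under 0.05), and scaling to hepatocyte genes left 330 positive and 152 negative. Of the 375 genes higher in FN1-high, 4 rose (SEL1L3, CILP, TC2N and 1 with no symbol) and 2 fell (HAPLN1 and 1 with no symbol) with the medium in FN1-high, while 138 rose and 35 fell in FN1-low. The difference was positive for 18 of them and negative for 84. Of all tested genes 9.72% rose and 8.06% fell in FN1-high, and 19.9% rose and 17.6% fell in FN1-low. The 375 genes were picked by the class difference in libraries that include those tested here. Their counts are therefore not free of that choice.

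ACTA2 had 815, 593 and 628 CPM in insulin-resistant medium and 740, 739 and 703 CPM in normal medium in FN1-high cultures, so the media overlapped. In FN1-low cultures it had 131, 138 and 132 CPM in insulin-resistant medium, against 95.7, 90.9 and 86.2 CPM (replicates 1 to 3) and 64.1, 58.8 and 63.1 CPM (4 to 6) in normal medium. It rose by 1.11 ± 0.08 log2 in FN1-low, and the difference between the classes was -1.21 ± 0.11 log2 (edgeR adjusted p = 4.52e-08). The FN1-low run of insulin-resistant medium with insulin had 71.5, 70.3 and 63.3 CPM of ACTA2; it is another run, dated April, so insulin, run and date cannot be told apart there. Of 20 contractile genes, none passed in either direction in FN1-high, while 15 rose and SMTN fell in FN1-low, and 12 differences were negative and that of SMTN positive.

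COL3A1 rose by 0.73 ± 0.10 log2 in FN1-low, with 2261, 2390 and 2362 CPM in insulin-resistant medium and 1131 to 1567 CPM in normal medium. FN1-high cultures had 4576, 3580 and 3340 CPM in insulin-resistant medium and 3580, 3826 and 3733 CPM in normal medium, and the difference between the classes was -0.69 ± 0.14 log2 (edgeR adjusted p = 0.00266; 0.294 when scaled to hepatocyte genes). The difference for COL1A1 was -0.69 ± 0.17 log2 (adjusted p = 0.0129) and did not pass without replicate 9 of untreated normal medium or replicate 8 or 9 of untreated insulin-resistant medium (-0.61 to -0.60 log2), nor with no date term (-0.07 log2). For CCN2 it was -0.42 ± 0.12 log2 (adjusted p = 0.0286). That call was lost when any 1 of 7 libraries was left out (replicates 6, 8 and 9 of untreated normal and 4, 5, 8 and 9 of untreated insulin-resistant medium; -0.42 to -0.36 log2), and with no date term it was 0.35 log2.

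GRIA1, a glutamate receptor subunit, showed the most negative difference among the genes named by the rule. It had 2.88, 2.38 and 2.19 CPM in insulin-resistant medium and 2.64, 2.75 and 3.5 CPM in normal medium in FN1-high cultures. In FN1-low cultures it had 27.2, 28.4 and 22.3 CPM in insulin-resistant medium and 2.94 to 5.12 CPM in normal medium, and the difference was -3.12 ± 0.21 log2 (edgeR adjusted p = 3.73e-10). SLIT3, a secreted guidance ligand, had 115, 120 and 117 CPM in that FN1-low run, close to the FN1-high libraries (103 to 140 CPM), and 21.6 to 30.7 CPM in FN1-low normal medium. The April run of the same medium with insulin held 4.82, 4.59 and 4.49 CPM of GRIA1 and 32.2, 38 and 31.8 CPM of SLIT3. Both genes were thus high in 1 FN1-low run and low in the other 3.

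MMP3, the protease stromelysin 1, had 13.4, 12.2 and 10.5 CPM in insulin-resistant medium and 10.6, 10.4 and 12.4 CPM in normal medium in FN1-high cultures. In FN1-low cultures it had 7.36, 6.97 and 7.31 CPM in insulin-resistant medium, against 112, 118 and 108 CPM (replicates 1 to 3) and 39, 33.5 and 31.5 CPM (4 to 6) in normal medium. It fell by 2.27 ± 0.11 log2 in FN1-low, and the difference was 2.38 ± 0.16 log2 (edgeR adjusted p = 1.35e-09). TFPI2, a protease inhibitor of the matrix, differed by 2.55 ± 0.23 log2 in the same way. In FN1-low it averaged 1.49 CPM in untreated insulin-resistant medium and 35.6 and 7.61 CPM in the normal-medium runs. The April run of insulin-resistant medium with insulin averaged 53 CPM of MMP3 and 9.68 CPM of TFPI2 in FN1-low. Both means were above those of replicates 4 to 6 in normal medium. Insulin, run and date cannot be told apart there. Of 28 cell-cycle genes, CCNE1 rose and TOP2A, CCNB2 and CENPF fell with the medium in FN1-high, CCNE1 rose and 25 fell in FN1-low, and 17 differences were positive. KIF20A averaged 16.8 CPM in insulin-resistant and 19.1 CPM in normal medium in FN1-high; in FN1-low the means were 20.6 CPM in insulin-resistant medium and 36.6 and 83.1 CPM in the normal-medium runs, with 93.7 CPM in insulin-resistant medium with insulin. Of the genes whose difference passed, 26% of the positive and 42.8% of the negative ones averaged under 1 CPM in the libraries low in stroma, against 10.6% of those called in both classes and 31.1% of all tested.

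**Figure D5:**
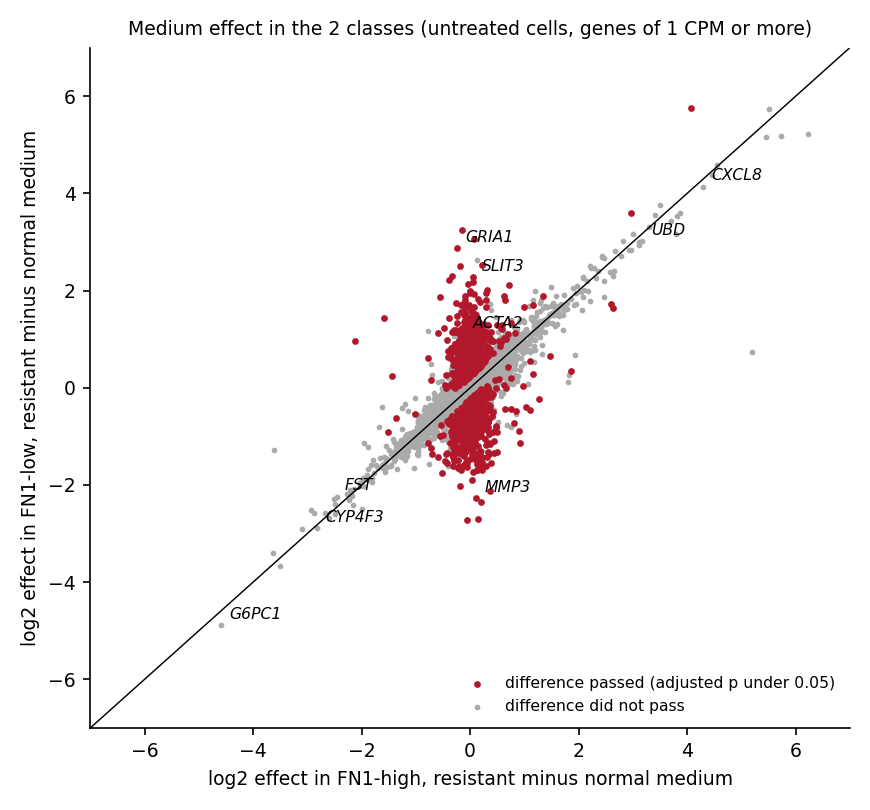
Medium effect (log2, untreated insulin-resistant minus normal medium) in FN1-high (horizontal) against FN1-low (vertical) for 14123 genes averaging 1 CPM or more; 1 further gene lies outside the axes. Red points passed the test of the difference; GRIA1, SLIT3 and MMP3 lie far from the diagonal near 0 on the horizontal axis, and G6PC1, FST, UBD and CXCL8 lie on it.

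The insulin effect is insulin-resistant medium with insulin minus the same medium without stimulation. In FN1-high, where replicates 4 to 9 were set against 7 to 9, no gene passed in either direction by edgeR (0% called); 401 genes had an unadjusted p under 0.05, the smallest adjusted p was 1, and DESeq2 called 1 gene. G6PC1 had 0.122 to 0.202 CPM with insulin and 0.0696 to 0.208 CPM without, and ACTA2 had 676 to 749 CPM with insulin and 593 to 815 CPM without. The ranges overlapped for both genes.

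In FN1-low, 2565 genes (13.8%) rose and 2616 (14%) fell by edgeR, and the difference between the classes was positive for 1922 (10.3%) and negative for 1900 (10.2%). These counts rest on the date term. The stimulated libraries, replicates 1 to 3, were all dated April and the unstimulated ones, replicates 4 to 6, all 24 May, so the dates are bridged only by the 2 unlike runs of untreated normal medium. With no date term 2436 genes rose and 4024 fell in FN1-low. With runs summed to 1 sample no gene passed for the FN1-low effect or for the difference by edgeR (2476 and 1037 genes had an unadjusted p under 0.05). Nothing is read from these FN1-low insulin counts.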

How the data were processed

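Poly-A RNA libraries of 36 HepG2-IGF1R-KO cultures were deposited as 1 table of 57771 genes. The authors' values are estimated counts per gene, not scaled; STAR, Salmon and GRCh37 are named in the submitters' processing notes, with no versions or settings given in the sources used here. Of the deposited values 15.5% were not whole, and all were rounded. Symbols came from a table keyed by Ensembl ID and matched 51994 genes (90%); promoters came from RefSeq by symbol.

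From these counts, TMM factors over all 36 libraries gave CPM (edgeR 4.0.16, R 4.3.3). Genes passing filterByExpr over the 6 combinations of class and condition (18637) were kept, and log2 CPM used a prior count of 1. A class difference was called at 2-fold in the mean log2 CPM of each of 3 conditions. Medium and insulin effects came from quasi-likelihood fits of condition within class plus date. Named genes were FN1, the 15 with the largest rise and fall (smallest over the 3 conditions) at 10 CPM or more, up to 4 members per list with the largest coefficient, the 5 largest rises and falls per tested effect, and a list of key genes; others were chosen after their values were seen, and 1 gene is not reported here. The members, the lists and the rule were chosen with earlier results of these data known. Alternatives were other scalings, filters, folds, dates, libraries left out, runs summed, a replicate block and DESeq2 1.42.0. The fits were tested on simulated data. Depth ranges stand in the report; counts cover counting error only. No pair of libraries agreed within sampling noise (lowest chi-square per gene 5.984 over 42 pairs).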

Additional observations from a re-analysis of the deposited data

Results flagged for a closer look

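In groups of 4 to 10 libraries, a library set apart from the others was looked for in 224 combinations of gene and group; 12 were found, and chance gives about 1 in 20. All 12 were in FN1-high cultures of insulin-resistant medium with insulin. Only 2 groups had this size, both of 6 libraries, and the other was FN1-low untreated normal medium. That group is 2 unlike runs of 3, where a single library can seldom stand apart, so the rate of 1 in 20 does not carry over to it. Replicate 8 was the highest of 6 libraries for TGFBI (4940 CPM, others 3770 to 4070), CCN2 (2910 CPM, others 2500 to 2580), THBS1 (8560 CPM, others 6640 to 7210), P4HA2 (402 CPM, others 340 to 357), ADAM12 (197 CPM, others 152 to 161), MMP2 (2030 CPM, others 1540 to 1670), TIMP3 (1730 CPM, others 1350 to 1440), SERPINE2 (1480 CPM, others 1230 to 1270), PTGS1 (42 CPM, others 31.4 to 34.9) and DKK1 (220 CPM, others 185 to 194). Replicate 9 was lowest for HOXD10 (3.71 CPM, others 4.73 to 5.28) and highest for PCK1 (2.94 CPM, others 1.62 to 1.96).

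The medium effect differed between FN1-high and FN1-low by edgeR's test of the difference for 14 of the named genes. The difference was negative for ACTA2 (-1.21 log2), COL1A1 (-0.688), COL3A1 (-0.695), CCN2 (-0.418), GRIA1 (-3.12), CLSTN2 (-2.31), SLIT3 (-2.22), KCND3 (-1.99) and ADGRD1 (-1.99). It was positive for TFPI2 (2.55), MMP3 (2.38), CXCL12 (1.93), CEP55 (1.91) and NEURL1B (1.9).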

How the results depend on the processing

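The genes higher and lower in FN1-high in every condition numbered 738 and 339 at 1.5-fold and 96 and 29 at 4-fold. The lower genes numbered 89 when scaled to hepatocyte genes, 230 when scaled to fibroblast markers (chosen after seeing the data), 74 with at least 1 CPM in 6 libraries, 345 without the 24 May libraries and 365 in the 22 April libraries alone; there the higher genes kept within 1.5 times of 375. Coefficients of at least 2-fold (630 higher, 583 lower) numbered 2285 and 3054 with no filter and 418 and 301 with at least 1 CPM. Scaling to hepatocyte genes moved the medium effect to 13583 higher and 299 lower in FN1-high, 11942 and 598 in FN1-low, and 330 and 152 for the difference; it left 594 lower for insulin in FN1-low, 371 higher for the insulin difference, and 2462 genes between the runs of untreated insulin-resistant medium. Scaling to fibroblast markers gave 707 and 591 for the medium effect in FN1-high, 1484 higher in FN1-low, 343 lower for the difference, 776 and 7809 for insulin in FN1-low, and 6196 and 579 for the insulin difference. With all 36 libraries the medium difference gave 406 and 410, insulin in FN1-low 1084 higher, and the insulin difference 876 and 460. With no date term 398 medium differences, 4024 FN1-low insulin effects and 1243 insulin differences were negative; with only the cultures compared, 457 medium differences were. That last fit could not be made for insulin in FN1-low or the insulin difference, and without 24 May the FN1-low effects could not be tested. Insulin in FN1-high gave 1 fall without 24 May and 1 rise by DESeq2.

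With each run of 3 summed to 1 sample, the medium effect gave 0 and 0 in FN1-high, 180 and 97 in FN1-low, and 0 for its difference and for every insulin effect. Pairs of runs within a condition (400 to 1814 genes) gave 1396, 2703, 2720, 2929, 3042, 3082 and 3213 with no filter and 45, 744, 799, 922, 945, 1012 and 1039 with at least 1 CPM. Against the direction reported, the CCN2 medium difference was 0.35 log2 with no date term and 0.38 log2 with runs summed. The causes were not tested.

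Leaving out each library in turn gave 347 to 402 higher genes, 127 to 173 lower genes, 459 to 850 negative medium differences, the last being the only count to move by over 1.5 times.

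Same-numbered replicates did not deviate together (1 of 21 pairs had a correlation over 0.1, median -0.0075). With a replicate block, 1017 coefficients were at least 2-fold higher and 1049 lower, with replicates 7 to 9 only in FN1-high; no count of a tested effect moved by over 1.5 times. The filters differ in which genes of low level they keep, so counts over them are of different genes at the depth given. Limits are that each arm is mostly 1 run of 3 libraries, and that class and cell composition cannot be told apart.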
